A study of Nicotiana tabacum with 32 samples.

Results

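Tobacco (Nicotiana tabacum, cultivar Xanthi) suspension cells silenced for SIPK by RNA interference were hybridised with wild-type cells on 2-colour arrays after 8 h of megaspermin in both genotypes. The 3 arrays with these labels, out of 32 in the series, were chosen by genotype, elicitor and time alone, without reference to any measured value. They were compared with 3 arrays each of the same genotype pair in the untreated biotic control taken at 0 h, at 4 h of megaspermin and at 8 h of harpin, a bacterial elicitor. A further 3 arrays, of wild-type cells at 4 h of megaspermin against untreated wild-type cells, gave the wild-type response. Both genotypes were grown in the dark at 25 C in MS medium and moved to fresh medium 3 days before treatment. The labels call the silenced genotype SIPK-Ri and name neither the construct nor the line. Each genotype was a single pooled culture divided into 3 volumes of 10 ml, so p-values measure the spread between volumes and not between independent cultures. Controls were sampled at 0 h only, so treatment cannot be told apart from the hours that passed. Silenced cells carried Cy3 on every 8 h megaspermin array, so that dye and genotype cannot be told apart within them either.

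SIPK, the salicylic acid-induced protein kinase, is a mitogen-activated protein kinase of tobacco that is activated within minutes of wounding, salicylic acid and many pathogen elicitors. It phosphorylates transcription factors and enzymes, among them isoforms of ACC synthase in the related Arabidopsis pathway, through which such kinases raise ethylene production. Megaspermin is an elicitin-type protein elicitor of Phytophthora that sets off the hypersensitive response in tobacco. On the genotype arrays its source is labelled Phytophthora megasperma. The wild-type megaspermin arrays carry the label P. syringae instead, and are taken here to have received the same elicitor because it has the same name.

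Values are log2 ratios of potato cDNA clones that bound tobacco RNA, and each clone may also have bound transcripts related to its named gene. A positive value likely means more RNA in the silenced cells: the labels call these cells the query and wild type the reference, although wild type comes first in the titles and the ratio itself is not stated. Ratios give no expression levels, and the cell type of the cultures could not be checked from them. No clone was named SIPK, and the silencing itself could not be read from the arrays. Of 15360 clones, 157 carried 1 gene symbol and 658 a potato locus number. Where a symbol had several clones they are numbered, as in CAT1.c1. Array 2 of the 8 h group was sparser and wider than the others: it held values for 7122 clones with an SD of 0.806, against 10665 clones (SD 0.535) on array 1 and 9628 clones (SD 0.528) on array 3. The 3 arrays correlated with each other at 0.791 to 0.828 across clones, which are not independent replicates. None of the 496 pairs of arrays in the series was flagged as a copy. Pairs of the 8 h group had equal values in 1, 7 and 2 clones.

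At 8 h of megaspermin the genotype effect passed an adjusted p of 0.05 (limma) in 3647 of 9819 tested clones (37.1%), 1823 of them higher (18.6%) and 1824 lower (18.6%) in silenced cells. Without array 2 the count was 2378 of 9519 clones. A change of at least 2-fold was reached by 713 called clones (7.26%), 423 higher (4.31%) and 290 lower (2.95%). Among the 149 tested clones with a gene symbol, 38 were higher and 23 lower, with a median of -0.03 against -0.08 over all tested clones. The called clones named here included, above 0, clones of the photosystem II subunit PSBR, the alcohol dehydrogenase ADH1 and methionine synthase MS, and, below 0, clones of the catalase CAT1, the auxin response proteins IAA2 and IAA3 and the UDP-galactose epimerase STUGE51.

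The fermentation gene ADH1 and the glycolysis gene PK, with 1 clone each, were among the highest. ADH1, which reduces acetaldehyde to ethanol, read 2.21, 2.77 and 1.46 on arrays 1 to 3, a mean of 2.15 ± 0.25 (SE, n = 3), or 4.43-fold higher (adjusted p = 1.08e-07). Pyruvate kinase, PK, which closes glycolysis, read 1.04, 1.57 and 1.45, a mean of 1.35 ± 0.14 (n = 3, 2.55-fold, adjusted p = 1.57e-08). All 3 arrays were above 1 for both genes, and ADH1 spread more widely than PK. Both clones of glucose-6-phosphate isomerase, GPI, were higher, at 0.70 and 0.98 ± 0.14 (n = 3), and both clones of transketolase, TK, an enzyme of the pentose phosphate pathway, read 0.55 ± 0.13 and 0.87 ± 0.13 (n = 3) and passed. The list of glycolysis, the pentose phosphate pathway and fermentation holds all of these but GPI. Over all tested clones 18.6% were higher and 18.6% lower. In this list 5 of 15 tested clones were higher and 2 lower, with a median of 0.07. The lower ones were a clone of glyceraldehyde-3-phosphate dehydrogenase, GAPDH.c2, at -0.68 ± 0.15 (n = 3), and the inorganic pyrophosphatase PPA1 at -0.69 ± 0.12 (n = 3). The other 7 GAPDH clones lay between -0.27 and 0.21 and did not pass, so the symbol had no common direction. The phosphoglycerate mutase clone PGAM.c1 passed at 0.43 ± 0.12 (n = 3), though not without array 1 (0.34). The lactate dehydrogenase LDH-2, which the list does not hold, read -0.06 ± 0.14 (n = 3) and did not pass (limma, adjusted p = 0.767).

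Clones of 2 successive enzymes of the methionine cycle had effects of opposite sign at 8 h. Methionine synthase, MS, forms methionine from homocysteine, and S-adenosylmethionine synthetase, METK1, turns methionine into the methyl donor from which plants also make ethylene. All 5 MS clones were higher in silenced cells, with means of 0.82 to 1.59. MS.c3 read 1.14, 2.08 and 1.54 on the 3 arrays, a mean of 1.59 ± 0.16 (n = 3, 3.00-fold, adjusted p = 1.75e-08). MS.c1, at the lower end, read 0.33, 1.09 and 1.05, so that array 1 gave the lowest value for either clone. All 9 METK1 clones had means below 0, between -0.86 and -0.15, and 6 of them passed as lower. METK1.c1 read -0.62, -1.01 and -0.69, a mean of -0.77 ± 0.12 (n = 3, adjusted p = 1.29e-05). Clones of 1 symbol may bind the same transcripts and are not independent of each other. METK1.c4 (-0.36) lost its call without array 1 (-0.36) or array 2 (-0.30), and with arrays scaled to a common spread (-0.33) or centred on their median (-0.30). It lost the call too with array weights (-0.34), with only the compared arrays (-0.36) and with a dye term (-0.42). METK1.c8 (-0.52) lost its call without array 1 (-0.44) and with a dye term (-0.51).

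The rest of the list of ethylene and methionine-cycle genes added only the ethylene receptor ERS to the calls. This left 6 of 18 tested clones higher and 6 lower with a median of 0.04, beside 18.6% each way over all tested clones. ERS binds ethylene at the endoplasmic reticulum and represses the response in its absence. It read 1.15, 1.90 and 0.68, a mean of 1.24 ± 0.28 (n = 3, 2.36-fold, adjusted p = 9.27e-04), with array 2 well above array 3. Acireductone dioxygenase, ARD, which salvages methionine, read 0.28 ± 0.14 (n = 3) and did not pass (adjusted p = 0.109). Serine hydroxymethyltransferase, SHMT, at 0.25 ± 0.17 (n = 3, adjusted p = 0.246) and cystathionine beta-lyase, CBL.c2, at 0.22 ± 0.17 (n = 3, adjusted p = 0.330) did not pass either. In amino acid synthesis the DAHP synthase SHKA, the entry to the shikimate pathway, was higher at 0.77 ± 0.14 (n = 3), while threonine synthase, TS, was lower at -0.44 ± 0.16 (n = 3), a call that was lost without array 1 (-0.37) or array 2 (-0.47), with arrays centred on their median (-0.39), with spots not averaged (-0.44) and with a dye term (-0.39).

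**Figure D1:**
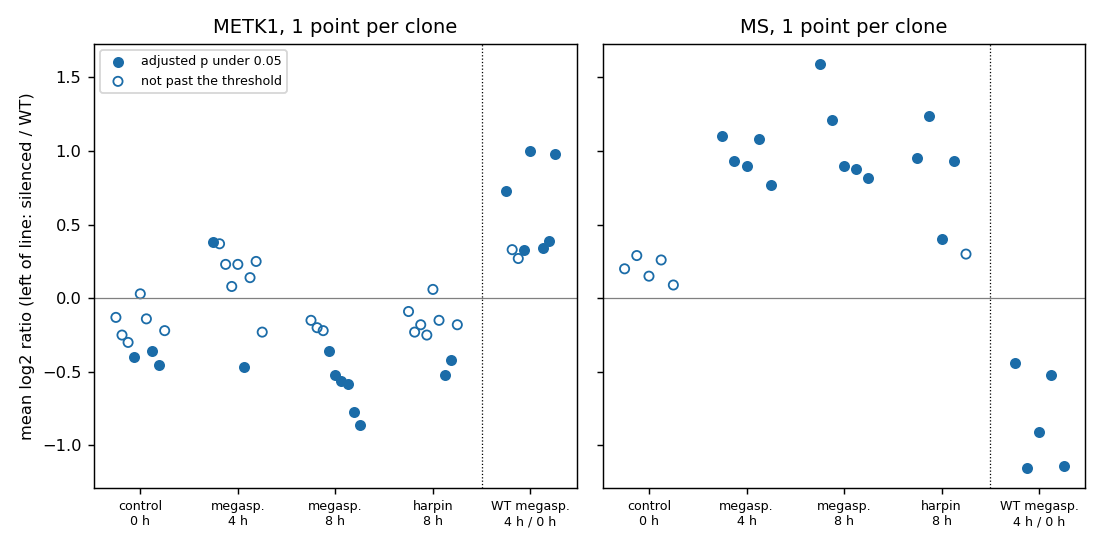
Mean log2 ratio (vertical axis) of each clone of METK1 (left) and MS (right) in the 4 genotype groups and, right of the dotted line, in wild type after 4 h of megaspermin over untreated cells; filled points passed an adjusted p of 0.05. At 8 h of megaspermin the 5 MS clones lie from 0.82 to 1.59 and the 9 METK1 clones from -0.86 to -0.15, while in the wild-type response the MS clones lie from -1.15 to -0.44 and the 8 tested METK1 clones from 0.27 to 1.0.

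Proton pumps led the membrane transport genes. The plasma membrane proton pumps PHA1 and PHA2 expel protons and drive secondary transport, and their inhibition is part of the alkalinisation that elicitors cause. PHA1 read 1.01, 1.37 and 1.27, a mean of 1.22 ± 0.10 (n = 3, 2.33-fold, adjusted p = 2.78e-10), the smallest standard error among the named genes above 1. PHA2 was higher in 3 of its 4 clones. PHA2.c1 read 0.88, 1.24 and 1.40, a mean of 1.18 ± 0.12 (n = 3), and PHA2.c2 1.02, 2.22 and 1.41, a mean of 1.55 ± 0.17 (n = 3). PHA2.c3 passed at 0.79 ± 0.20 (n = 3) but rested on array 2, without which it was 0.36 and did not pass, nor did it with array weights (0.46), and PHA2.c4 read 0.16 ± 0.14 (n = 3, adjusted p = 0.375). The sucrose transporter SUT2 was higher at 0.57 ± 0.18 (n = 2, adjusted p = 0.0179), a call that was lost with array weights (0.45), with spots not averaged (0.57) and once every array was scaled to the same spread (0.46). The potassium channel KST1 (0.25 and 0.32) and the aquaporin MIP2 (-0.37 and -0.22) did not pass, although KST1.c2 was called without array 3 (0.50). In this list 5 of 10 tested clones were higher and 0 lower (limma), with a median of 0.45. At an unadjusted p under 0.05 the counts were 6 and 0, beside 2155 higher and 2361 lower among all 9819 tested clones. Of the 5 called, 4 were proton pump clones. All tested clones were higher in 18.6% and lower in 18.6%, with a median of -0.08.

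The uncoupling protein UCP and the respiratory subunit TYKY2 were higher. UCP, which lets protons back into the mitochondrial matrix, read 0.89, 1.36 and 0.94 in UCP.c1, a mean of 1.06 ± 0.15 (n = 3, 2.09-fold, adjusted p = 4.61e-06). UCP.c2 read 0.63, 1.81 and 0.75, the same mean of 1.06 ± 0.19 (n = 3), but 0.69 without array 2. TYKY2, which belongs to respiratory complex I, read 0.82, 1.46 and 0.84, a mean of 1.04 ± 0.13 (n = 3). For these 3 clones array 2 gave the highest value and arrays 1 and 3 were close to each other. The alternative oxidase AOX, which bypasses the later complexes, read -0.28 ± 0.16 (n = 3) and did not pass (adjusted p = 0.195).

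Catalase was lower. CAT1 breaks down hydrogen peroxide in peroxisomes, and CAT1.c1 read -1.43, -1.49 and -1.05, a mean of -1.32 ± 0.12 (n = 3, 2.50-fold lower, adjusted p = 3.71e-09). CAT1.c2 read -1.09, -1.54 and -0.99, a mean of -1.20 ± 0.15 (n = 3), whereas CAT1.c3 read -0.31 ± 0.19 (n = 3) and did not pass (adjusted p = 0.202). Dehydroascorbate reductase, which regenerates ascorbate, was lower in DHAR.c1 (-0.57 ± 0.19, n = 2) and in DHAR2.c1 (-0.51 ± 0.13, n = 3) and higher in DHAR.c3 (0.84 ± 0.24, n = 2). With a dye term DHAR.c1 (-0.56) and DHAR.c3 (0.24) no longer passed, DHAR.c3 read 1.34 with spots not averaged, and DHAR2.c1 did not pass without array 2 (-0.41). The list of redox and respiration genes, which leaves out TYKY2 and DHAR2, had 3 of 9 tested clones higher and 3 lower, with a median of -0.28. The shares over all tested clones were 18.6% each way, with a median of -0.08.

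Beside 18.6% higher and 18.6% lower over all tested clones, the defence list had 3 of 11 higher and 1 lower, with a median of -0.01. The higher ones were both clones of the WRKY transcription factor STWRKY8 and the NAC transcription factor NAC2. STWRKY8.c1 read 1.36, 1.30 and 1.48, a mean of 1.38 ± 0.16 (n = 3, 2.60-fold, adjusted p = 1.74e-07), and STWRKY8.c2 0.80 ± 0.16 (n = 3). The 3 arrays of STWRKY8.c1 lay close together. NAC2 passed at 0.51 ± 0.15 (n = 3) but not without array 2 (0.41) or array 3 (0.42), with array weights (0.37), with spots not averaged (0.51) or with a dye term fitted to the dye-exchanged arrays as well (0.29). The vacuolar processing enzyme VPE2, a protease with caspase-like activity in plant cell death, was lower in VPE2.c1 at -0.44 ± 0.13 (n = 3), though not without array 2 (-0.28), with array weights (-0.31) or with spots not averaged (-0.44), and VPE2.c2 read 0.00 ± 0.15 (n = 2). The pathogenesis-related protein PR1B (-0.29 ± 0.16, n = 2 and -0.35 ± 0.15, n = 3), the polyphenol oxidase PPO (-0.28 ± 0.18 and -0.46 ± 0.20, n = 3) and the hydroperoxide lyase HPL (-0.01 and 0.18, n = 2) did not pass. PR1B.c2 was called without array 3 (-0.51), and PPO.c1 passed with the 8 h group fitted alone.

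Auxin response proteins and cell wall genes were among the lower clones. IAA2 read -1.20, -1.22 and -1.02, a mean of -1.15 ± 0.17 (n = 3, 2.22-fold lower, adjusted p = 4.91e-06), and IAA3 -0.58, -0.91 and -0.66, a mean of -0.72 ± 0.16 (n = 3, adjusted p = 7.36e-04). All arrays of both genes were below -0.5. The UDP-galactose epimerase STUGE51, which interconverts sugar nucleotides for cell wall polymers, was lower in both clones, at -0.78 ± 0.16 and -0.87 ± 0.15 (n = 3). Its relative STUGE45 was higher at 0.50 ± 0.14 (n = 3), though not without array 2 (0.37), and read 0.87 with a dye term. The pectin methylesterase PEST2 read 1.17, 1.01 and 0.80, a mean of 0.99 ± 0.15 (n = 3, adjusted p = 5.10e-06). PEST2 was as high in untreated silenced cells (1.05 ± 0.15, n = 3). Its change from there of -0.06 ± 0.21 did not pass (limma, n = 6, adjusted p = 0.877). The cell wall list thus had 2 of 4 tested clones higher and 2 lower, and the hormone list 1 of 3 higher and 2 lower. Such short lists stand beside 18.6% higher and 18.6% lower over all tested clones.

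Other named clones on the high side were SS16.c1 (1.49, 2.44 and 0.87, mean 1.60 ± 0.21, n = 3), DD (1.5 ± 0.19, n = 3), R1.c1 (0.98 ± 0.20, n = 2) and the calcium-dependent kinase CDPK2 (0.66 ± 0.13, n = 3), the single called clone of 3 on the kinase and calcium list. SS16 was not uniform, since SS16.c2 was lower at -0.38 ± 0.11 (n = 3), a call lost without array 1 (-0.31) or array 2 (-0.36). The acid invertase PAIN-1, which splits sucrose, was higher at 0.43 ± 0.14 (n = 3), though not without array 3 (0.22), with spots not averaged (0.43), with only the compared arrays (0.43) or with the dye term (0.30). With SS16, R1 and PAIN-1 the sugar and starch list had 4 of 8 tested clones higher and 1 lower. Among all tested clones it was 18.6% each way, a share that also stands beside the kinase and calcium, flavonoid and cell cycle counts. On the low side RA215 read -0.79 ± 0.12 (n = 3), CO -0.58 ± 0.16 (n = 3) and RGGA.c3 -0.45 ± 0.12 (n = 3), where CO did not pass without array 2 (-0.39) and RGGA.c3 not without array 3 (-0.35). At an unadjusted p under 0.05 (limma), 2155 of all 9819 tested clones were higher and 2361 lower. Of 5 tested flavonoid clones 0 passed in limma and 1 had an unadjusted p under 0.05, and of 2 cell cycle clones 0 did either. The flavonol synthase FLS.c1 came nearest at -0.49 ± 0.20 (n = 3, adjusted p = 0.0504) and was called at -0.75 without array 2.

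Markers of green tissue were read as a check. PSBR.c1, measured on arrays 1 and 3 only, stood at 1.90 and 2.48, a mean of 2.19 ± 0.29 (n = 2, adjusted p = 3.19e-05), the highest of all clones with a gene symbol. The 5 other PSBR clones lay between -0.30 and 0.31 and did not pass, so 1 of 6 clones of the photosynthesis and plastid list was higher and 0 lower (limma, also at an unadjusted p under 0.05). Over all 9819 tested clones 18.6% passed each way, and 2155 were higher and 2361 lower at an unadjusted p under 0.05. No clone carried a symbol of the storage organ list. Clones with a locus number ran from 2.84 ± 0.25 (n = 3) for LOC102604154.c1 to -1.98 ± 0.13 (n = 3) for LOC102582711.c1, and clones without a symbol from 3.96 ± 0.42 (n = 2) to -2.77 ± 0.16 (n = 3). The 89 tested clones with several symbols, which were not named, included 16 higher and 55 lower clones and had a median of -0.54. All tested clones had 18.6% each way and a median of -0.08.

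The genotype effect at 8 h of megaspermin was set against that in untreated cells. Some of the highest clones at 8 h were already higher before treatment, while MS, STWRKY8, UCP and IAA2 were called at 8 h but not in the control, from which each of them differed. PEST2 (1.05), DD (0.91), NAC2 (0.82), GPI.c1 (0.55), CDPK2 (0.54), R1.c1 (0.51), TK.c2 (0.45) and TK.c1 (0.40) were called higher in the control. Their changes from it did not pass. The change from the control passed in 2454 of 9496 tested clones (25.8%), 1274 upward (13.4%) and 1180 downward (12.4%). Across these clones the effects at 0 h and 8 h correlated at 0.36, a description over clones read on the same arrays. Of 3583 clones called at 8 h and 2843 called in the control, 1379 were called in both (38.5% and 48.5% of each), 1104 with the same direction and 275 with opposite directions.

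**Figure D2:**
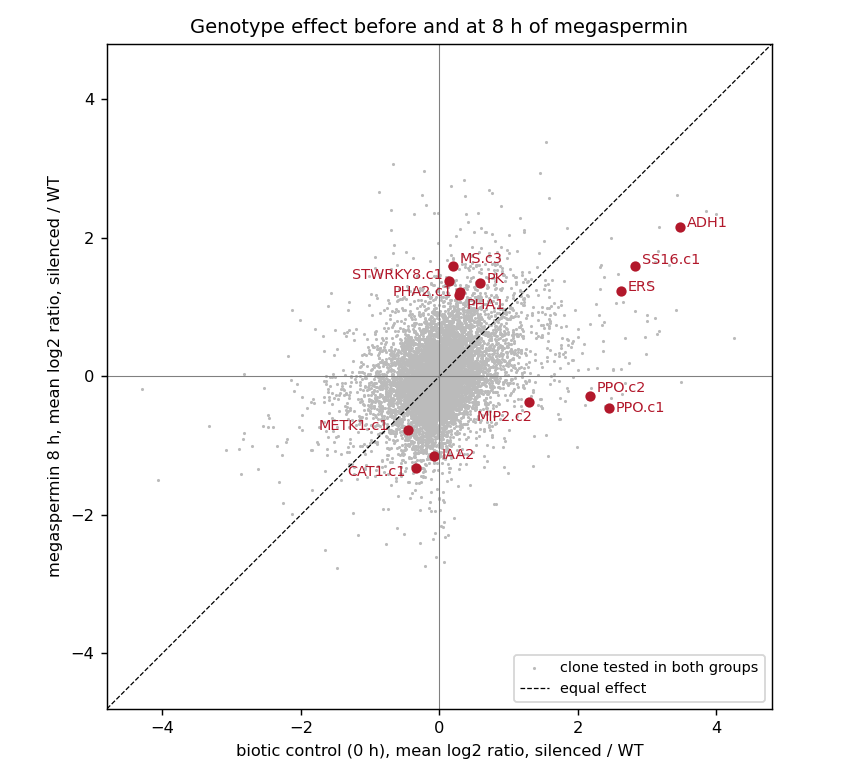
Mean log2 ratio of silenced over wild-type cells in the untreated biotic control (horizontal axis) and at 8 h of megaspermin (vertical axis) for 9496 clones tested in both groups, with named clones in red and a dashed line of equal effect. ADH1, SS16.c1 and ERS lie right of the line with smaller effects at 8 h, and PPO lies near 0 at 8 h after more than 2 in the control. MS.c3 and STWRKY8.c1 lie near 0 in the control, and PHA1 lies at 0.30 there, where it was called higher.

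Polyphenol oxidase, which oxidises phenolics to quinones, changed most among the named genes. PPO.c1 read 2.93, 2.14 and 2.26 in untreated cells (mean 2.45 ± 0.20, n = 3) and -0.27, -0.89 and -0.21 at 8 h, a change of -2.90 ± 0.29 (n = 6, adjusted p = 1.99e-08). PPO.c2 changed from 2.17 ± 0.18 to -0.28 ± 0.18, by -2.45 ± 0.26 (n = 6). Every control array of both clones was above 1 and every 8 h array below 0. The effect on ADH1 declined from control arrays at 3.99, 3.32 and 3.09 (mean 3.47 ± 0.25, n = 3), a change of -1.32 ± 0.35 (n = 6, adjusted p = 5.64e-03). ERS went from 3.05, 2.70 and 2.12 (mean 2.62 ± 0.28, n = 3) by -1.38 ± 0.40 (n = 6, adjusted p = 0.0113), and SS16.c1 from 2.82 ± 0.21 by -1.22 ± 0.30 (n = 6). The control arrays of ADH1, ERS and SS16.c1 lay above their 8 h arrays. The choice of clones favoured such separation, also for PPO.c1, and its share over all clones was not counted. Of 3 tested SS16 clones, 2 changed downward. The change of ADH1 did not pass without control array 1 (-1.06), nor that of ERS without control array 1 (-1.17) or 8 h array 3 (-1.10). With arrays scaled to a common spread the changes were larger, at -2.32 for ADH1, -2.17 for ERS and -2.10 for SS16.c1. The aquaporin clone MIP2.c2 went from 1.29 ± 0.20 by -1.66 ± 0.29 (n = 6), and HPL.c2 from 1.19 ± 0.20 by -1.20 ± 0.32 (n = 5), which did not pass without control array 1 (-0.92). The other clone of each symbol did not pass, with changes of 0.03 for MIP2 and -0.50 ± 0.32 for HPL.c1 (n = 5). DE2 went from 1.20 ± 0.14 to 0.05 ± 0.14.

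IAA2, IAA3 and 2 of 3 CAT1 clones changed downward from the control, while the third CAT1 clone changed by 0.18 and did not pass. IAA2 read -0.17, -0.09 and 0.04 in the control (mean -0.07 ± 0.17, n = 3) and changed by -1.07 ± 0.24 (n = 6, adjusted p = 1.39e-03). IAA3 went from 0.29 ± 0.16 by -1.01 ± 0.23 (n = 6). CAT1.c1, already called at -0.33 ± 0.12 in the control, changed by -0.99 ± 0.18 (n = 6, adjusted p = 1.09e-04). No 8 h array of IAA2, IAA3 or CAT1.c1 reached the range of its control arrays. The choice of clones favoured such separation, and its share over all clones was not counted.

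Upward changes were seen in all 5 MS clones, whose control means of 0.09 to 0.29 had adjusted p-values of 0.157 to 0.671 (limma). MS.c3 read 0.05, 0.10 and 0.45 in untreated cells and changed by 1.39 ± 0.23 (n = 6, adjusted p = 5.27e-05). STWRKY8.c1 changed from 0.24, 0.19 and -0.02 by 1.24 ± 0.23 (n = 6, adjusted p = 2.05e-04). PHA1 changed from 0.33, 0.29 and 0.28 by 0.92 ± 0.14 (n = 6, adjusted p = 1.50e-05). PHA2.c1 (0.89 ± 0.17), UCP.c1 (0.90 ± 0.22), PK (0.78 ± 0.19) and STUGE45 (0.88 ± 0.19) changed upward as well (n = 6). The lowest 8 h array of each of these 7 clones was above its highest control array. The choice of clones favoured this, since every 8 h array had to lie on 1 side of the control mean. The share of all clones separated in this way was not counted. Of 4 tested PHA2 clones, 2 changed upward. In the control PHA1 (0.30 ± 0.10) and PK (0.58 ± 0.14) had already been called higher, and STUGE45 (-0.37 ± 0.14) lower (n = 3). PGAM.c1 (from -0.53 ± 0.12 by 0.96 ± 0.17, n = 6), SUT2 (from -0.44 ± 0.18 by 1.01 ± 0.26, n = 4) and PURM (from -0.92 ± 0.24 by 1.09 ± 0.37, n = 5) turned from a mean below 0 to one above it. PURM kept neither its call without any 1 of the control arrays (1.07 to 1.10) nor with replicate number as a block (1.05, adjusted p above 0.05). The METK1 clones had control means of -0.45 to 0.03, with 3 of 9 called lower, and their changes from the control (-0.64 to 0.08) had adjusted p-values of 0.0553 to 0.960 (limma). By list, membrane transport had 4 of 10 tested clones changed upward and 1 downward, ethylene and methionine cycle 5 of 18 upward and 2 downward, and defence 2 of 11 upward and 4 downward. Among all tested clones 13.4% changed upward and 12.4% downward.

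Between 4 h and 8 h of megaspermin the genotype effect differed in 1292 of 8176 tested clones (15.8%), 743 upward (9.09%) and 549 downward (6.71%). With arrays centred on their medians the split was 894 upward and 409 downward. The count was 818 without 8 h array 2 and 856 without 4 h array 1. The differences from control, from 4 h and from harpin all use the same 8 h megaspermin arrays and are not independent of each other. The effects at both times correlated at 0.60 across the 8176 clones, and 1571 clones were called at both times (46.3% of those at 8 h and 57.9% of those at 4 h), 1490 with the same direction.

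The proton pump PHA1 and 1 of 2 clones of the factor STWRKY8 were higher at 8 h than at 4 h. PHA1 read 0.09, 0.09 and -0.09 at 4 h and 1.01, 1.37 and 1.27 at 8 h, a difference of 1.19 ± 0.14 (n = 6, adjusted p = 2.48e-06). PHA2.c1, by contrast, already read 1.38, 1.15 and 1.73 at 4 h, and its difference of -0.24 ± 0.17 did not pass (adjusted p = 0.338). STWRKY8.c1 read 0.48, 0.09 and 0.48 at 4 h, and 8 h exceeded it by 1.03 ± 0.23 (n = 6, adjusted p = 3.35e-03), while STWRKY8.c2 differed by 0.42 ± 0.22 and did not pass (n = 6, adjusted p = 0.206). PK (0.52, 0.82 and 0.16 at 4 h) differed by 0.85 ± 0.19 (n = 6, adjusted p = 4.05e-03). STUGE45 read -0.74, -0.94 and -0.53 at 4 h and turned sign, a difference of 1.24 ± 0.19 (n = 6, adjusted p = 1.75e-04). In each of these 4 clones no 8 h array reached the range at 4 h. They were chosen with every 8 h array on 1 side of the 4 h mean, which favours such separation. Its share over all clones was not counted. UCP.c1 (0.78 ± 0.22), PEST2 (0.73 ± 0.21) and GPI.c1 (0.61 ± 0.19) were also higher at 8 h (n = 6). Their calls were lost when 1 array was left out, UCP.c1 without 8 h array 2 (0.63) or 4 h array 1 or 3 (0.66 each), PEST2 without 8 h array 1 (0.64) or 4 h array 3 (0.57), and GPI.c1 without 8 h array 3 (0.48) or 4 h array 1 (0.44) or 3 (0.60). Each of these calls was also lost when both groups were fitted alone, and those of PEST2 and GPI.c1 with spots not averaged. The other clones, UCP.c2 (0.69 ± 0.28) and GPI.c2 (0.25 ± 0.21), did not pass (n = 6).

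For CAT1 and IAA3 the effect was deepest at 4 h. CAT1.c1 read -2.22, -2.07 and -1.81 at 4 h (mean -2.03 ± 0.12, n = 3), and 8 h was higher by 0.71 ± 0.18 (n = 6, adjusted p = 6.72e-03), and CAT1.c2 differed by 0.88 ± 0.22 (n = 6). The difference in CAT1.c1 did not pass when both groups were fitted alone (0.71) or with arrays scaled to a common spread (0.76). IAA3 read -1.72, -2.02 and -0.92 at 4 h and differed by 0.84 ± 0.23 (n = 6). That call was lost without 4 h array 2 (0.60) and when both groups were fitted alone.

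Downward differences from 4 h to 8 h included PPO and METK1. PPO.c1 read 1.31, 1.12 and 0.20 at 4 h (mean 0.88 ± 0.20, n = 3), which placed it between the control and 8 h, and differed by -1.33 ± 0.29 (n = 6, adjusted p = 2.52e-03). METK1.c1 read 0.19, 0.22 and 0.34 at 4 h and differed by -1.02 ± 0.17 (n = 6, adjusted p = 2.99e-04). Of the 9 METK1 clones, 3 were lower at 8 h than at 4 h, and all 9 differences were below 0 (-1.02 to -0.09). The MS clones had means of 0.77 to 1.10 at 4 h, all called, and their differences between the times had adjusted p-values of 0.149 to 0.993 (limma; MS.c3 differed by 0.49 ± 0.23, n = 6). FLS.c1 (0.63 ± 0.20 at 4 h) differed by -1.11 ± 0.28 (n = 6), a call lost without 8 h array 3 (-0.79). It was the single called clone of 3 tested FLS clones, whose differences reached 0.24. IAA2 (-0.79 ± 0.24), DE2 (-0.68 ± 0.19), ARD (-0.66 ± 0.19) and TK.c1 (-0.66 ± 0.18) passed too (n = 6). TK.c2 differed by -0.27 ± 0.18 (n = 6) and did not pass. IAA2 lost its call without 8 h array 1 (-0.76), 8 h array 2 (-0.75) or 4 h array 1 (-0.56), and ARD without 8 h array 2 (-0.63) or 4 h array 1 (-0.56). DE2 lost it without 8 h array 3 (-0.48) or 4 h array 2 (-0.44), and TK.c1 without array 2 of either time (-0.47 at 8 h and -0.55 at 4 h). The calls of IAA2, DE2, ARD and TK.c1 were also lost when both groups were fitted alone. Spots not averaged ended those of IAA2, DE2 and ARD, and scaling to a common spread those of ARD and TK.c1.

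**Figure D3:**
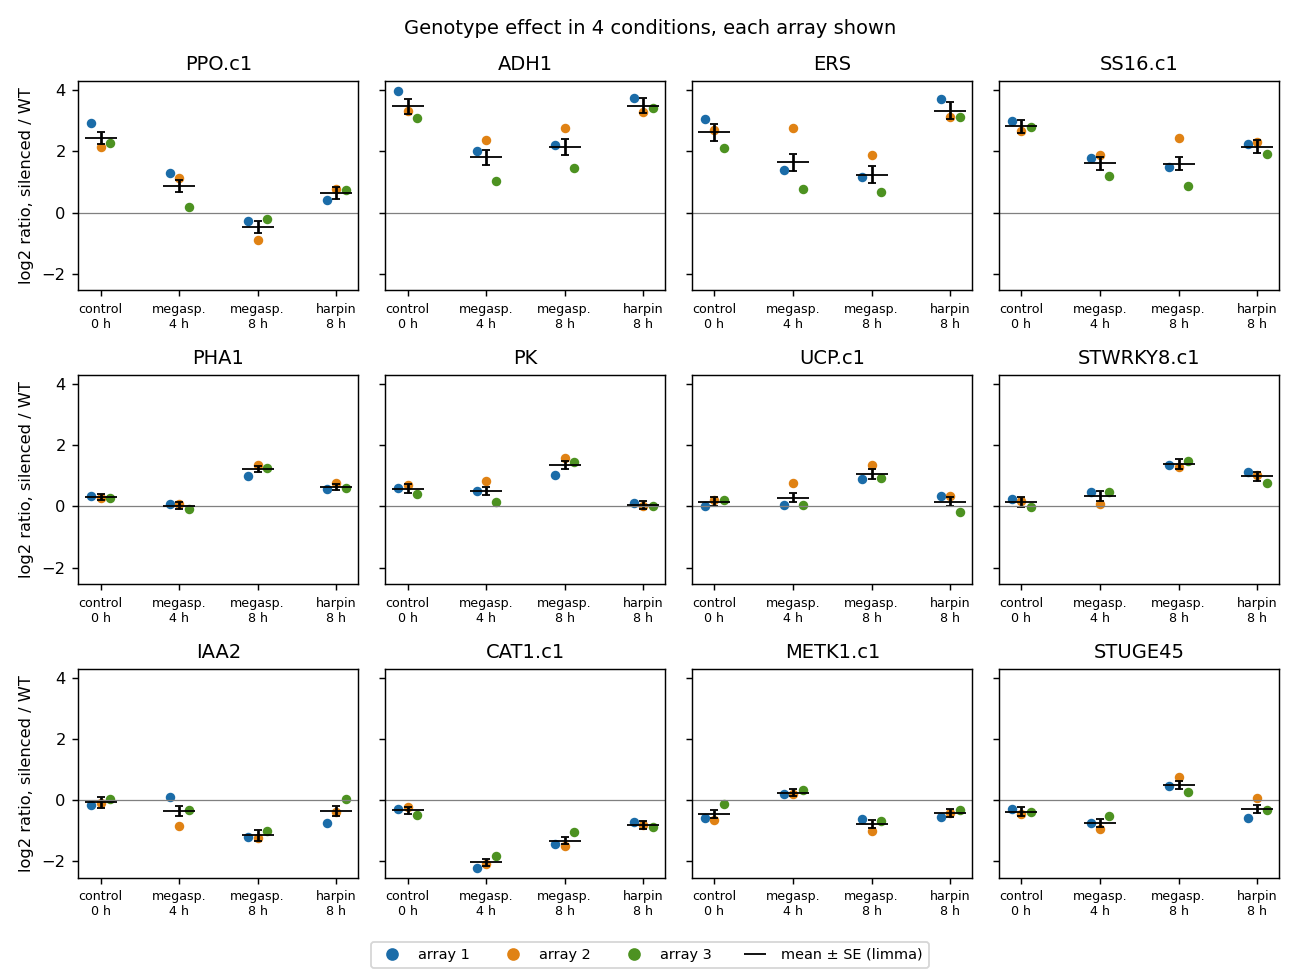
Log2 ratio of silenced over wild-type cells (vertical axis) on each of the 3 arrays of the biotic control, megaspermin at 4 h and 8 h and harpin at 8 h for 12 clones, with horizontal bars at the mean and error bars of ± SE of the limma model. PPO.c1 goes from 2.45 in the control to -0.46 at 8 h of megaspermin, PHA1 and PK are highest at 8 h of megaspermin, and CAT1.c1 is lowest at 4 h with -2.03.

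Harpin allowed a comparison with another elicitor at the same time. The genotype effect differed between the elicitors in 2231 of 8052 tested clones (27.7%), 1244 of them higher with megaspermin (15.4%) and 987 lower (12.3%). The effects correlated at 0.51 across these clones, and 1928 clones were called with both elicitors (56.7% of those with megaspermin and 51.5% of those with harpin), 1652 with the same direction and 276 with opposite directions. Pyruvate kinase, PK, read 0.10, 0.03 and 0.01 with harpin, a difference of 1.31 ± 0.19 (n = 6, adjusted p = 9.14e-06). PEST2 read 0.16, -0.04 and -0.31 with harpin and differed by 1.05 ± 0.21 (n = 6, adjusted p = 3.19e-04). UCP.c1 (0.90 ± 0.22, n = 6), SHKA (0.83 ± 0.20, n = 6) and PHA2.c1 (1.28 ± 0.19, n = 5) were higher with megaspermin, with harpin means of 0.16, -0.06 and -0.10. The megaspermin arrays of these 5 clones all lay above their harpin arrays. They were chosen with every megaspermin array on 1 side of the harpin mean, which favours such separation. Its share over all clones was not counted. Of 4 tested PHA2 clones, 2 passed as higher with megaspermin.

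BEL5, PURM and PGAM also had clones that differed between the elicitors. The homeobox factor clone BEL5.c1 read -1.28, -1.10 and -1.33 with harpin and 0.18, 0.11 and 0.27 with megaspermin (difference 1.43 ± 0.19, n = 6, adjusted p = 2.43e-06). BEL5.c2 went the other way at -0.70 ± 0.26 (n = 6), a call lost when any 1 array was left out (-0.77 to -0.63). PURM (1.23 ± 0.37, n = 5) and PGAM.c1 (0.89 ± 0.17, n = 6) were lower than 0 with harpin, at -1.06 ± 0.24 and -0.46 ± 0.12.

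Ethylene receptor and alcohol dehydrogenase effects were larger with harpin. ERS read 3.72, 3.14 and 3.14 with harpin, so megaspermin was lower by -2.09 ± 0.40 (n = 6, adjusted p = 2.21e-04), and ADH1 read 3.76, 3.28 and 3.43, with a difference of -1.34 ± 0.35 (n = 6, adjusted p = 4.45e-03). All harpin arrays of both genes were above all megaspermin arrays, a separation that the choice of clones favoured. Its share over all clones was not counted. NAC2 read 1.52, 1.68 and 1.68 with harpin and differed by -1.12 ± 0.22 (n = 6, adjusted p = 3.33e-04). PPO.c1 (-1.09 ± 0.29), BRP1 (-0.89 ± 0.19), FLS.c1 (-0.89 ± 0.28), DE2 (-0.79 ± 0.19), IAA2 (-0.79 ± 0.24) and GAPDH.c2 (-0.60 ± 0.21) were lower with megaspermin (n = 6). Of 3 tested FLS clones and 8 tested GAPDH clones 1 each passed, and the differences reached 0.22 for FLS and 0.31 for GAPDH. Left-out arrays ended the calls of FLS.c1 (-0.56 without megaspermin array 3, -0.80 without harpin array 3), IAA2 (-0.59 without harpin array 3) and GAPDH.c2 (-0.44 without megaspermin array 2, -0.61 and -0.54 without harpin array 1 or 2). MS was higher in silenced cells with both elicitors in 4 of 5 clones, and the fifth, MS.c1, read 0.30 ± 0.13 with harpin (n = 3, adjusted p = 0.0662). In the direct comparison MS.c3 (0.64 ± 0.23), MS.c1 (0.52 ± 0.19) and MS.c4 (0.50 ± 0.18) passed as higher with megaspermin (n = 6). MS.c2 (-0.05 ± 0.19) and MS.c5 (-0.03 ± 0.22) did not pass (n = 6). By list, 3 of 9 tested defence clones were lower with megaspermin and 0 higher (limma), and 6 and 0 at an unadjusted p under 0.05. The median of the list was -0.72 against -0.02 over all clones, of which 12.3% were lower and 15.4% higher. At an unadjusted p under 0.05, 1465 of all 8052 tested clones were lower and 1650 higher.

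Clones that responded to megaspermin in wild-type cells were followed at 8 h, with no array in common between the choice and the reading. In wild type at 4 h, 3259 of 7078 tested clones passed (46.0%), 1647 risen (23.3%) and 1612 fallen (22.8%). Of the risen clones 1631 were tested at 8 h, and 688 of them (42.2%) were lower in silenced cells and 258 (15.8%) higher. Their median was -0.29, and -0.22, -0.39 and -0.24 on arrays 1 to 3. Of the fallen clones 1571 were tested, and 569 (36.2%) were higher and 159 (10.1%) lower. Their median was 0.19, and 0.18, 0.28 and 0.16 on the arrays. The 3629 tested clones that had not passed in wild type were higher in 16.3% and lower in 17.4% of cases, with a median of -0.09. Among clones that rose at least 2-fold in wild type, 165 of 435 (37.9%) were lower and 110 (25.3%) higher, with a median of -0.11, so the larger wild-type responses did not have a lower median. These are descriptions, with no test.

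**Figure D4:**
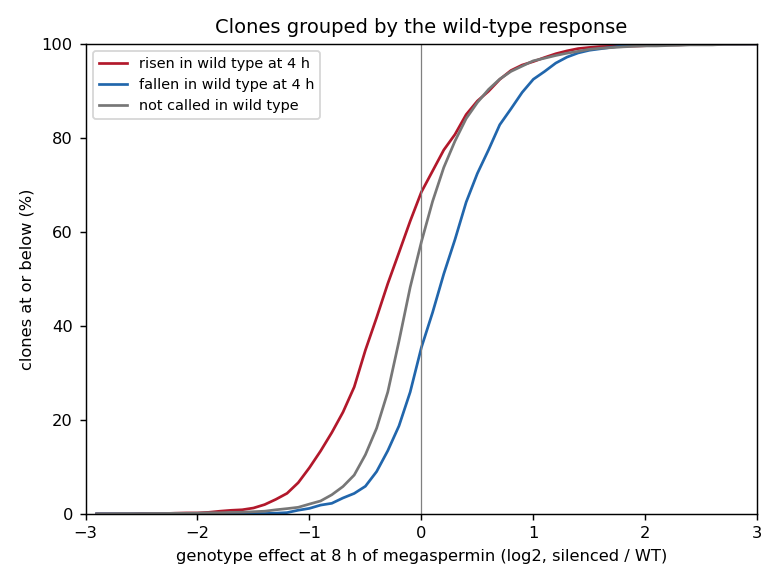
Cumulative share of clones (vertical axis, percent) against the log2 ratio of silenced over wild-type cells at 8 h of megaspermin (horizontal axis), for clones that had risen (1631), fallen (1571) or not passed (3629) in wild type after 4 h of the elicitor. The risen clones lie left of the others with a median of -0.29 and the fallen clones right with a median of 0.19.

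Named genes were found on each side of this relation. IAA2 had risen in wild type (1.24 ± 0.17, n = 3) and CAT1.c1 too (0.73 ± 0.12, n = 3), and both were lower in silenced cells at 8 h. METK1 had risen in 6 of 8 tested clones, by 0.33 to 1.0 among the called, and MS had fallen in all 5 clones. UCP.c1 (-0.82 ± 0.19, n = 2), PHA2.c1 (-0.79 ± 0.12, n = 3) and TYKY2 (-0.67 ± 0.13, n = 3) had fallen in wild type and were higher in silenced cells. ADH1 (1.69 ± 0.25, n = 3), STWRKY8.c1 (0.96 ± 0.16, n = 3) and SS16.c1 (1.23 ± 0.21, n = 3) had risen in wild type and were higher in silenced cells all the same, and ADH1 and SS16.c1 had been higher in untreated silenced cells. ERS (-0.25 ± 0.28, n = 3), PK (-0.32 ± 0.14, n = 3) and PHA1 (-0.22 ± 0.10, n = 3) did not pass in wild type.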

How the data were processed

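Per the deposited table, each of the 32 arrays held signed log2 ratios for 32448 spots. Log base 2 and normalization within each array were assumed, because neither is given in the sources used here. Per the labels, RNA of the silenced or treated cells was Cy3 and that of the reference cells Cy5. Duplicate spots were paired by their place in the layout (905 of 905 named pairs were placed as predicted) and averaged to 15360 clones, and 1728 spots without a partner were left out. The model was limma 3.58.1 in R 4.3.3, with 10 group means estimated from the 30 arrays of standard dye orientation and moderated standard errors (eBayes, prior degrees of freedom 8.02). Testing required values on at least 2 of 3 arrays in each group. Benjamini-Hochberg adjustment was made per contrast and 0.05 was the threshold. The fit was tested on simulated data. Errors are standard errors of the model, n counts arrays, and the number of arrays limits the precision.

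Genes named are the 15 highest and 15 lowest called clones with 1 gene symbol and 1 sign on every 8 h array (10 and 10 for a difference, each 8 h array on 1 side of the other group's mean), 1 clone per symbol by smallest p, and clones of listed genes. Of clones with a locus number or no symbol only the ends are printed. The comparisons, members and lists were chosen with earlier results of these data known. Symbols come from a dated platform annotation. Alternatives were the replicate block, the groups fitted alone, scaled or centred arrays, array weights, stricter filters, spots not averaged, a 2-fold minimum, a dye term and each array left out. Figures were drawn with Python 3.11.15 and matplotlib 3.10.9.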

Additional observations from a re-analysis of the deposited data

Results flagged for a closer look

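The results below were singled out because the genotype effect at 8 h of megaspermin differed from that in another condition by a direct test of the difference (limma, adjusted p under 0.05). They are differences of log2 ratios, and all 3 sets use the same 8 h megaspermin arrays.

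Against the untreated control the effect was higher for MS.c3 (1.39), STWRKY8.c1 (1.24), PURM (1.09), SUT2 (1.01), PGAM.c1 (0.96), PHA1 (0.92), UCP.c1 (0.90), PHA2.c1 (0.89), STUGE45 (0.88) and PK (0.78). It was lower for PPO.c1 (-2.90), MIP2.c2 (-1.66), ERS (-1.38), ADH1 (-1.32), SS16.c1 (-1.22), HPL.c2 (-1.20), DE2 (-1.14), IAA2 (-1.07), IAA3 (-1.01) and CAT1.c1 (-0.99). At the ends of the clones with a locus number were LOC102604154.c1 (2.48) and LOC102585502.c2 (-2.66), and at those of the clones without a symbol were differences of 4.11 and -3.69.

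Against 4 h of megaspermin the effect at 8 h was higher for STUGE45 (1.24), PHA1 (1.19), STWRKY8.c1 (1.03), PK (0.85), IAA3 (0.84), UCP.c1 (0.78), PEST2 (0.73), CAT1.c1 (0.71) and GPI.c1 (0.61). It was lower for PPO.c1 (-1.33), FLS.c1 (-1.11), METK1.c1 (-1.02), IAA2 (-0.79), DE2 (-0.68), ARD (-0.66) and TK.c1 (-0.66). LOC102599567 (1.70), LOC102592556.c1 (-1.10) and clones without a symbol at 3.34 and -1.69 marked the ends.

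Against harpin at 8 h the effect was higher for BEL5.c1 (1.43), PK (1.31), PHA2.c1 (1.28), PURM (1.23), PEST2 (1.05), UCP.c1 (0.90), PGAM.c1 (0.89), SHKA (0.83), STUGE45 (0.78) and SI1.c2 (0.76). It was lower for ERS (-2.09), ADH1 (-1.34), NAC2 (-1.12), PPO.c1 (-1.09), FLS.c1 (-0.89), BRP1 (-0.89), DE2 (-0.79), IAA2 (-0.79), BEL5.c2 (-0.70) and GAPDH.c2 (-0.60). The ends were LOC102590882.c3 (2.75) and LOC102577613 (-1.49), and 3.3 and -2.98 among clones without a symbol.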

How the results depend on the processing

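For the 247 results on single clones, 3090 values under alternatives held 130 calls lost, 23 gained and 0 called values with the opposite sign. The number of called clones moved by more than 1.5 times as follows. With spots not averaged the counts were 6418 for the effect at 8 h, 4165 for the change from control, 2160 for 8 h minus 4 h and 3872 for megaspermin minus harpin, since each clone then counts up to 2 times. With a 2-fold minimum they were 713, 824, 366 and 815. For 8 h minus 4 h the count was 667 (467 higher, 200 lower) with the groups fitted alone and 2177 with array weights; the cause was not tested. With each array left out in turn the counts ran from 2378 to 3167, from 1761 to 2154, from 818 to 1162 and from 1739 to 1977. A dye term, estimated from 2 dye-exchanged arrays of other conditions, gave 2905 calls at 8 h.

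Replicate numbers were not shown to pair the arrays. Deviations from the group mean of same-numbered arrays correlated with those of the 8 h group at 0.024, 0.069 and 0.111 for the control, 0.158, 0.176 and 0.097 for 4 h and -0.229, 0.008 and 0.172 for harpin. With replicate number as a block the counts were 3472, 2358, 1197 and 2149, and the calls of PURM minus control (1.05) and SI1.c2 megaspermin minus harpin (0.76) were lost. The small share of clones with a value on array 2 (7122 clones) limits what was measured on all 3 arrays.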
